A study of Mus musculus with 4 samples.

Results

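Natriuretic peptide genes and stress-responsive muscle genes were described in the mouse heart, by RNA sequencing of 4 libraries. The group holds 9 genes of the 24906 in the count tables: Nppa, Nppb, Ankrd1, Xirp1, Xirp2, Tubb6, Lmcd1, Ccn2 and Fhl1. They were chosen by symbol, through the RefSeq transcripts that map to each. Each group had 1 library, for which 3 hearts of 12-week-old mice were combined. The dC10mut library came from cMyBP-CΔC10mut mice, whose transgene carries the 25-bp variant of MYBPC3, and was set against NTG, from nontransgenic mice; both carry the strain label C57BL/6. The tt library is of cMyBP-C(t/t) mice and was set against a library from control mice; both carry the label FvB/N. The series title names a model of hypertrophic cardiomyopathy (HCM) and one of dilated cardiomyopathy (DCM), and in both the altered protein, cMyBP-C, is the cardiac myosin binding protein of the thick filament. Which promoter drives the transgene, how many founder lines there were and what the t/t allele is are not stated in the labels.

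Loaded heart muscle switches on a recurring set of genes. Natriuretic peptides are secreted hormones that act through receptors that make cyclic GMP, lowering blood volume and vascular tone; in adults the atria are their main source, and the ventricle makes more of them under strain. Other members of the set are structural or regulatory proteins of the sarcomere, the intercalated disc and the microtubules, or matrix signals, and several respond to mechanical stretch.

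Total counts lay between 170543 and 187365 per library, so 1 count equals between 5.34 and 5.86 CPM (the count relative to its library total). The limit used for a count of 0 was a one-sided floor of 3 counts, or between 15.6 and 18.7 CPM after scaling; the two-sided exact interval used for other counts reaches 3.69 counts at 0. Intervals below are 95% intervals for counting error only; they do not cover differences between animals, and no ratio within a pair has a replicate check. Ventricular Myl2 (2405 to 3520 counts) and cardiac actin Actc1 (906 to 1403) marked all 4 libraries as heart muscle. The defining heart genes Tnnt2 and Myl3 were listed at 0 throughout, and the alpha myosin gene Myh6 held 1 count in tt and 0 elsewhere; each has more than 1 transcript row. Xist held 8 counts in dC10mut and 0 in NTG, and 14 in tt and 0 in control, while Y-linked Ddx3y held 0 in dC10mut and 1 in NTG, and 0 in tt and 14 in control. Sex and genotype therefore cannot be told apart in either pair.

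The library kit keeps the strand of each read, and whether the counting used it is not stated. Of 35347 placed transcripts, 7395 had an exon opposite another gene's exon. These 7395 held between 66.9% and 70.4% of the placed counts. Mhrt, an RNA transcribed opposite the beta myosin gene Myh7, held 6620 counts in dC10mut and 1778 in NTG, and 447 in tt and 698 in control, where Myh7 held 11 in dC10mut and 27 in NTG, and 20 in tt and 20 in control. Tsix, transcribed opposite Xist, held 147 counts in dC10mut and 0 in NTG, and 159 in tt and 0 in control. Both antisense genes thus held more counts than their partners where either was counted. Annotated opposite-strand exons overlap Nppa (Gm13054, 532 bases), Xirp2 (Gm13601) and Ccn2 (Gm15270), and these 3 partners had no row in the tables used here. Ankrd1, Xirp1, Tubb6, Lmcd1, Nppb and Fhl1 had no opposite-strand exon in GENCODE M21. Reads of a gene and of RNA from the other strand of its locus cannot be told apart here, for Ankrd1 and Nppa as for other genes, and a level below is the count listed under the symbol.

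Of the 9 genes, 6 held counts and 3 were listed at 0 in every library. The 6 with counts (Nppa, Ankrd1, Xirp1, Tubb6, Lmcd1 and Ccn2) each have 1 transcript row. The 3 at 0 have several rows: 2 for Nppb, 2 for Xirp2 and 4 for Fhl1. In the tables as a whole, 19.8% of the genes with more than 1 row held a count, against 45.7% of those with 1 row. How reads shared between rows were treated is not stated, so a 0 for Nppb, Xirp2 or Fhl1 is not evidence that the gene was silent. Together the 6 genes took 0.257% of all counts in dC10mut and 0.301% in NTG. Their share was 0.378% in tt and 0.559% in control.

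The promoters of Nppa and Ankrd1 are shown because the results below turn on these 2 genes. Promoters of 6 of the 9 genes matched the RefSeq table (GRCm38.p6). Each printed run is the 250 bases before the RefSeq start site, 5′ to 3′ on the strand of the gene, for Nppa chr4:148000472-148000721 (plus strand) and for Ankrd1 chr19:36119845-36120094 (minus strand). Capitals mark matches on either strand to 3 short motifs. TATAA is a TATA box core. The letters GATA are the core read by the factors of that name. CATTCC is the M-CAT element read by TEAD factors.
Nppa: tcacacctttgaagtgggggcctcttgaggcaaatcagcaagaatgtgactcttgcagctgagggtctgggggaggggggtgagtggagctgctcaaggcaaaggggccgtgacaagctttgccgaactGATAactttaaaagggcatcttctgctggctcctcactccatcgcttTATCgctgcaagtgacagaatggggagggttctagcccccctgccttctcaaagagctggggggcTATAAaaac
Ankrd1: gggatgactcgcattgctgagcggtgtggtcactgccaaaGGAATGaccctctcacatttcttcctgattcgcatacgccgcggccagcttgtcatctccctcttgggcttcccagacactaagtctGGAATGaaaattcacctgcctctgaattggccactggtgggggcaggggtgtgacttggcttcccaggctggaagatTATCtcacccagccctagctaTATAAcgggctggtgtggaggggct
The TATA box core matched once in each run. The GATA core matched 2 times in the Nppa run and 1 time in the Ankrd1 run. The M-CAT element matched 0 times in the Nppa run and 2 times in the Ankrd1 run, both on the opposite strand. No match overlaps another here. Neither run held a strict CArG box (CC, 6 bases of A or T, then GG), the element read by serum response factor. Looser forms of that element were not searched. Of 32851 promoters of the same length, 22.8% held the TATA box core on either strand, 53.6% the GATA core, 12.6% the M-CAT element and 1.47% a strict CArG box. The table starts Ankrd1 at 36119844, while its placed GENCODE M21 transcript reaches 36120099, across the window. These matches describe the letters and were not tied to the counts.

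Nppa, the atrial natriuretic peptide gene (chromosome 4, 148000722 to 148002074, GRCm38), was highest in the control library. It held 22 counts in dC10mut and 9 in NTG, and 16 counts in tt and 60 in control. In CPM scaled by TMM (a trimmed-mean factor per library) its levels were 118 in dC10mut, 56.2 in NTG, 83.0 in tt and 330 in control. The 3 other libraries could not be ordered among themselves beyond counting error, and each lay below control. A gene was called higher or lower when its log2 ratio, computed with a prior count of 0.5, reached 1 in size and its interval excluded equality. By that rule Nppa was lower in tt than in control (log2 ratio -1.96, interval -2.88 to -1.18). In the dC10mut pair its log2 ratio was 1.03 with an interval that spans equality (-0.11 to 2.37), so the difference was not resolved at this depth. The difference between the pairs' log2 ratios, tt pair minus dC10mut pair, was -2.98 (interval -4.33 to -1.64). The same rule of size and interval was met in that direction by 1 of the 6 genes, and by 2.48% of 6932 genes with a count in both pairs.

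Nppb, the brain natriuretic peptide gene, lies beside Nppa on chromosome 4 (147985786 to 147987205) and was listed at 0. The marker genes of atrial muscle were low: 6 of the 8 on the list held no count in any library, among them Myl7, Sln and Bmp10, which have 1 row each, and the list summed to 6 counts in dC10mut and 5 in NTG, and to 5 in tt and 2 in control. These counts came from Tbx5 and Nr2f2 alone and are too few to compare, and the part of atrial muscle in the values of Nppa was not tested.

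Ankrd1 encodes a cardiac ankyrin repeat protein that binds the titin spring and also enters the nucleus (chromosome 19, 36111965 to 36119844). It held the most counts of the 6 genes in either pair and, like Nppa, was highest in control. Its counts were 196 in dC10mut and 227 in NTG, and 321 in tt and 609 in control, or 1047, 1416, 1666 and 3347 scaled CPM in that order of libraries. The dC10mut library was below NTG by less than 2-fold (log2 ratio -0.43, interval -0.72 to -0.15). The tt library was lower than control at the edge of the rule (log2 ratio -1.01, interval -1.21 to -0.81). With DESeq2 size factors in place of TMM this ratio was -0.98, which ends the call. From low to high the order was dC10mut, NTG, tt and control; NTG and tt did not differ beyond counting error, and the other neighbours did.

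**Figure D1:**
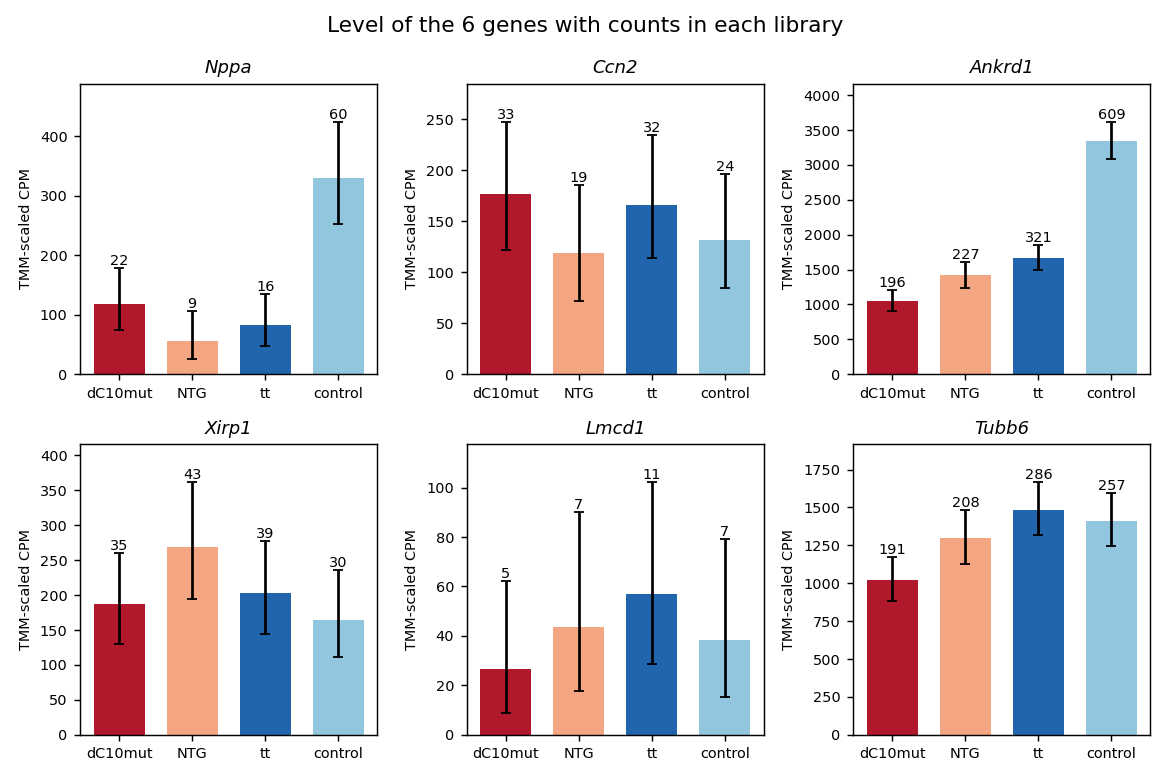
Level of each of the 6 genes with counts in the dC10mut, NTG, tt and control libraries, in TMM-scaled CPM on axes that start at 0. Bars are single libraries, error bars are exact Poisson 95% intervals of the count, and the number above each bar is the count; Nppa (60 counts) and Ankrd1 (609) stand highest in control.

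Xirp1 and Xirp2 encode Xin repeat proteins, which bind actin at the intercalated disc. Xirp1 (chromosome 9, 120013755 to 120023598) held 35 counts in dC10mut and 43 in NTG, and 39 in tt and 30 in control. Its 4 levels lay between 165 and 268 scaled CPM, and no pair of libraries differed beyond counting error. The log2 ratio was -0.51 (interval -1.21 to 0.16) in the dC10mut pair and 0.29 (-0.43 to 1.03) in the tt pair. Xirp2, on chromosome 2, was listed at 0.

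Lmcd1 and Fhl1 encode LIM-domain proteins of muscle; Lmcd1 is known to act with calcineurin and GATA factors, and Fhl1 binds titin and is X-linked. Lmcd1 (chromosome 6, 112273758 to 112330423) was the lowest of the 6, with 5 counts in dC10mut and 7 in NTG, and 11 in tt and 7 in control. Its intervals allow a difference of more than 2-fold either way in the dC10mut pair (log2 ratio -0.65, -2.71 to 1.16). In the tt pair the interval ran to more than 2-fold higher (log2 ratio 0.54, -0.93 to 2.17). Fhl1, on chromosome X, was listed at 0.

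Tubb6, a beta-tubulin of the microtubules that rises in regenerating and stressed striated muscle (chromosome 18, 67390731 to 67402749), came next to Ankrd1 in counts. It held 191 counts in dC10mut and 208 in NTG, and 286 in tt and 257 in control. Its levels were 1020 scaled CPM in dC10mut and 1298 in NTG, and 1484 in tt and 1412 in control. The dC10mut library was below NTG by less than 2-fold (log2 ratio -0.35, interval -0.64 to -0.057). With library totals in place of TMM this ratio was -0.26, so its distance from equality depends on the scaling. The interval of tt against control spans equality (log2 ratio 0.071, -0.18 to 0.32). Tubulin genes share sequence, so how reads matching several of them were counted could shift this value.

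Ccn2 encodes connective tissue growth factor, a matrix protein downstream of TGF-beta and YAP signalling (chromosome 10, 24595442 to 24598683). It held 33 counts in dC10mut and 19 in NTG, and 32 in tt and 24 in control. Both log2 ratios were positive and both intervals spanned equality, at 0.56 (-0.28 to 1.47) in the dC10mut pair and 0.33 (-0.48 to 1.16) in the tt pair. Ccn2 thus held more counts in each model library than in its partner, by an amount that counting error covers. The 8 fibroblast markers summed to 62 counts in dC10mut and 44 in NTG, and to 42 in tt and 57 in control. Of these Dpt, the dermatopontin gene, held 38 in dC10mut and 14 in NTG, and 18 in tt and 19 in control, and was higher in dC10mut by the rule. The other 7 summed to 24 in dC10mut and 30 in NTG, and to 24 in tt and 38 in control. The part of fibroblasts in the values of Ccn2 was not tested.

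Levels between genes were set side by side per kilobase of transcript. In control, Ankrd1 had 1657 scaled CPM per kilobase, Tubb6 803, Nppa 381, Ccn2 55.0, Xirp1 28.2 and Lmcd1 22.2. In NTG the same values were 701 for Ankrd1, 738 for Tubb6, 64.9 for Nppa, 49.4 for Ccn2, 45.9 for Xirp1 and 25.2 for Lmcd1. In dC10mut Tubb6 had 580 scaled CPM per kilobase and Ankrd1 518, and in tt Tubb6 had 844 and Ankrd1 825, and the order of these 2 genes was not resolved beyond counting error in any library except control.

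Setting the pairs against all genes puts these counts in proportion. A gene was measured in a pair where it held a count. In the dC10mut pair 0 of the 6 genes passed the rule, where 4.32% of 8026 measured genes did in either direction. In the tt pair 2 of the 6 were lower, Nppa and Ankrd1, where 1.58% of 8240 measured genes were lower. Among genes with at least 10 counts in the pair, which all 6 reach, 3.51% were lower. The median log2 ratio of the 6 genes was -0.39 in the dC10mut pair, against -0.11 over all measured genes, and 0.18 in the tt pair, against -0.06. Over genes with at least 10 counts in the pair, the median was -0.0015 in the dC10mut pair and -0.058 in the tt pair.

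**Figure D2:**
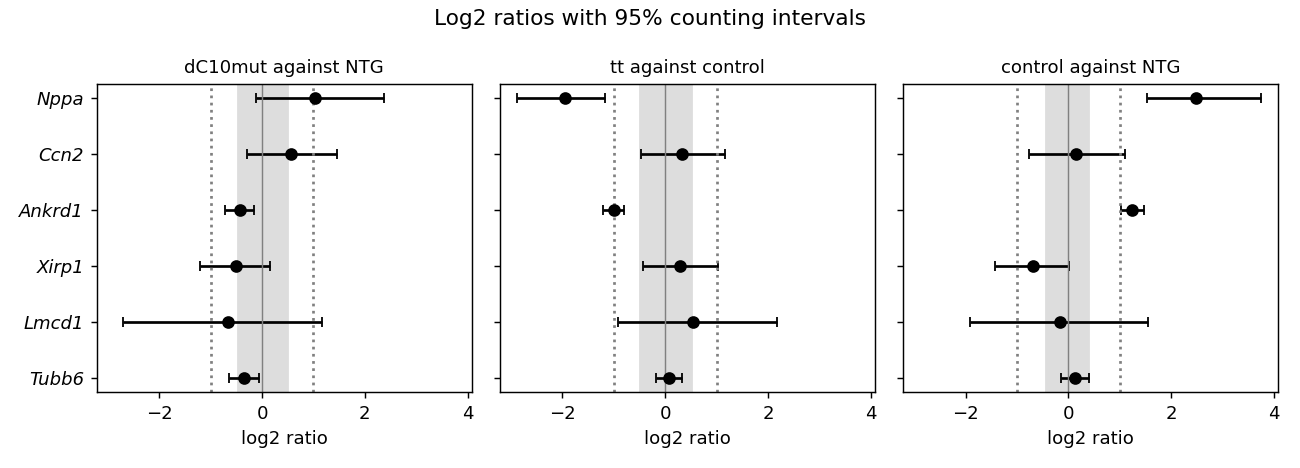
Log2 ratio of each of the 6 genes with its 95% counting interval, for dC10mut over NTG, tt over control and control over NTG. Dotted lines mark 2-fold and grey bands span the middle quartiles of genes with at least 10 counts; Nppa (-1.96) and Ankrd1 (-1.01) lie at or past 2-fold lower in tt.

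The control and NTG libraries carry neither model and differ in strain label, and they were set against each other as a yardstick. Ddx3y held 14 counts in control and 1 in NTG and was higher in control by the rule, while Xist held 0 in both. Nppa and Ankrd1 were both higher in control than in NTG. The log2 ratio was 2.49 (interval 1.53 to 3.75) for Nppa and 1.24 (1.02 to 1.47) for Ankrd1, and these 2 of the 6 passed, where 1.4% of 8143 genes were higher. The other 4 genes had intervals that span equality, with Xirp1 at -0.69 (-1.43 to 0.0036), Tubb6 at 0.12, Ccn2 at 0.15 and Lmcd1 at -0.17. This comparison and the tt pair share the control library, so the high values in control enter both. With NTG in place of control, a choice made after the values were seen, tt had log2 ratios of 0.54 for Nppa (interval -0.70 to 1.92) and 0.23 for Ankrd1 (-0.016 to 0.49), and 0 of the 6 genes passed, where 3.45% of all measured genes did. With control in place of NTG, dC10mut had ratios of -1.47 for Nppa and -1.67 for Ankrd1, both lower by the rule, which 2.03% of all measured genes met in that direction. The calls of Nppa and Ankrd1 in tt were thus made against 1 control library and were not met against NTG. Both replacements set libraries of unlike strain label against each other, and a library with Xist counts against one without. Strain, sex and model therefore cannot be told apart there.

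**Figure D3:**
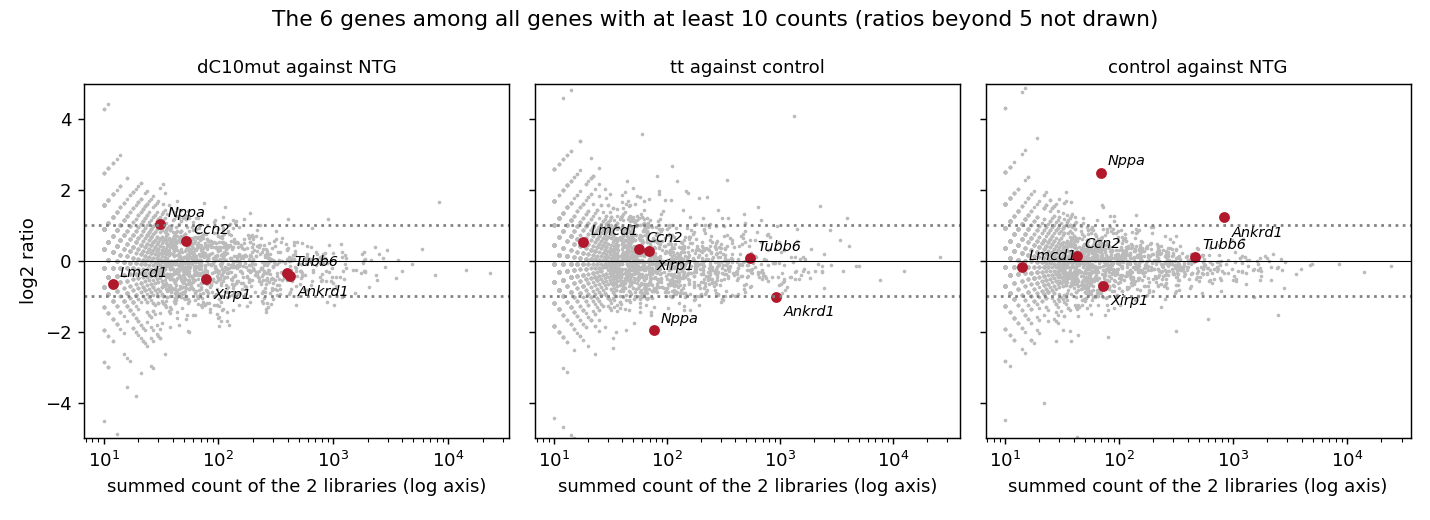
Log2 ratio against the summed count of the 2 libraries on a log axis, for genes with at least 10 counts, in the dC10mut pair, the tt pair and control against NTG. Each grey point is a gene and red points are the 6 genes; Ankrd1 and Nppa sit below 0 in the tt pair and above 0 in control against NTG, which share the control library.

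Ratios within a library do not depend on scaling. Ankrd1 held 1.03 counts per Tubb6 count in dC10mut (interval 0.836 to 1.26) and 1.09 in NTG (0.90 to 1.32). It held 1.12 per Tubb6 count in tt (0.954 to 1.32) and 2.37 in control (2.04 to 2.75). The interval of control overlapped none of the other 3, which overlapped one another. For Nppa the ratio to Tubb6 was 0.115 in dC10mut (0.0705 to 0.180) and 0.0433 in NTG (0.0195 to 0.0837). It was 0.0559 in tt (0.0315 to 0.0924) and 0.233 in control (0.173 to 0.310). Here the interval of control overlapped that of dC10mut at its lower end and neither of the others. Nppa per Ankrd1 count was 0.112 in dC10mut (0.0688 to 0.175) and 0.0396 in NTG (0.0179 to 0.0766), and 0.0498 in tt (0.0281 to 0.0822) and 0.0985 in control (0.0743 to 0.129). Its intervals overlapped at their ends within each pair. Overlap of separate intervals does not settle whether 2 ratios differ, and the libraries' ratios were not compared directly. Such ratios show unequal levels and do not say which gene of the 2 differed.

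**Figure D4:**
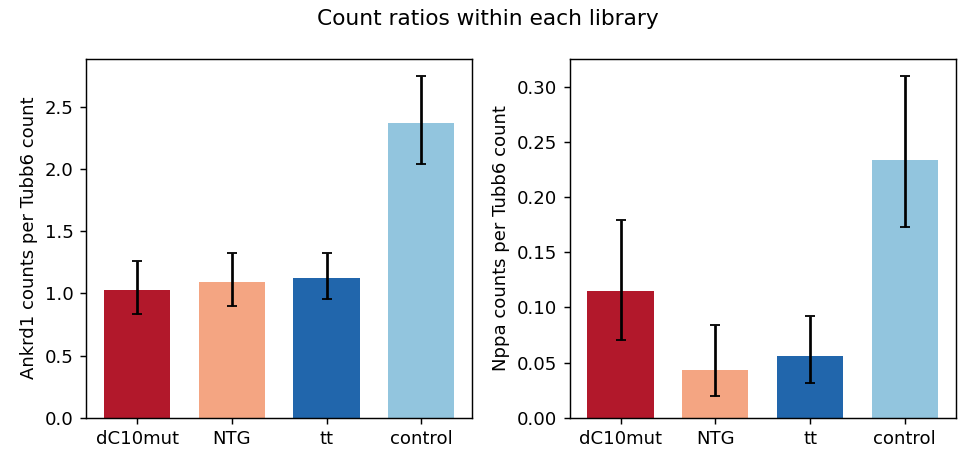
Counts of Ankrd1 (left) and Nppa (right) per count of Tubb6 in the dC10mut, NTG, tt and control libraries, with axes that start at 0 and exact binomial 95% intervals. Control stands highest in both panels, at 2.37 for Ankrd1 and 0.233 for Nppa.

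A difference shared by both models was sought in 7355 genes by a quasi-likelihood fit in edgeR that held each pair as a block, with Benjamini-Hochberg adjustment. With 1 residual degree of freedom the fit compares 2 model libraries with 2 partners. Xist held counts in both model libraries and 0 in both partners, so sex and model cannot be told apart in this fit. At an adjusted p under 0.05, 0.245% of the genes passed and 0 of the 6 did. For Ankrd1 the shared log2 difference, models over their partners, was -0.73 ± 0.28 (SE, edgeR), with an unadjusted p of 0.00908 and an adjusted p of 0.661. It was the 1 gene of the 6 with an unadjusted p under 0.05 in edgeR, and 0 were in DESeq2, where its unadjusted p was 0.0615. Nppa, whose ratios had opposite signs in the pairs, had -0.70 ± 0.48 (SE, edgeR, adjusted p 0.997). Ccn2 had 0.45 ± 0.45 (SE, edgeR, adjusted p 0.997).

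The 3 genes with the pattern most like that of Ankrd1 were sought among 510 genes with at least 200 counts, by the root mean square difference of centred log2 levels over the 4 libraries. They were Lrrc2 (48 counts in dC10mut and 48 in NTG, 76 in tt and 97 in control, distance 0.246), Ppt1 (54 counts in dC10mut and 49 in NTG, 56 in tt and 102 in control, distance 0.286) and Slc24a5 (44 counts in dC10mut and 61 in NTG, 66 in tt and 91 in control, distance 0.308). Ppt1 and Slc24a5 have exons opposite Cap1 and Myef2. For Tubb6 the nearest were C530005A16Rik, at a distance of 0.0471, Ncl, the nucleolin gene, at 0.0471 and Igsf10 at 0.0817. Ncl held 76 counts in dC10mut and 80 in NTG, and 104 in tt and 99 in control. With 4 libraries such likeness is a description.

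Genes around the 9 were followed through 10 lists, chosen with earlier results of these data known. They hold 134 distinct genes in the tables, of which 84 held a count; 46 of the 65 with more than 1 transcript row were at 0, and 4 of the 69 with 1 row. In the dC10mut pair 2 of 76 measured genes were higher and 2 lower, with a median log2 ratio of -0.20; over all measured genes 1.79% were higher and 2.53% lower. In the tt pair 2 of 75 were higher and 2 lower, with a median of -0.06, where 2.71% of all measured genes were higher and 1.58% lower. In control against NTG 1 of 79 was higher and 1 lower, where 1.4% of all measured genes were higher and 1.69% lower. Nothing particular to the lists is read from counts this small.

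Of 13 genes of natriuretic peptide processing, receptors and cyclic GMP signalling, 8 held a count in the dC10mut pair and 7 in the tt pair, and 0 passed the rule in either. The cyclic GMP-making receptor gene Npr1 held 3 counts in dC10mut and 8 in NTG, and 3 in tt and 2 in control. Ide, a protease that degrades natriuretic peptides and insulin, held 6 and 7 counts in dC10mut and NTG, and 14 and 10 in tt and control. The clearance receptor gene Npr3 held 9 and 4 counts in dC10mut and NTG, and 2 and 6 in tt and control. Corin, the protease that activates the atrial peptide, held 4 counts in dC10mut and 0 in NTG, and 8 in tt and 4 in control. In both pairs the intervals of these 4 genes spanned equality.

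Among 17 genes of transcription factors, 0 of 8 measured passed in the dC10mut pair and 1 of 7 in the tt pair. This was Srf, serum response factor, at 14 counts in tt and 2 in control (log2 ratio 2.46, interval 0.60 to 5.91). Srf held 10 counts in dC10mut and 4 in NTG, so control held its lowest count. The most counted of the list was Hand2, a factor of ventricular development, with 26 counts in dC10mut and 23 in NTG, and 20 in tt and 28 in control. Tbx20 held 3 counts in dC10mut and 8 in NTG, and 17 in tt and 8 in control, and Gata6 held 5 in dC10mut and 11 in NTG, and 11 in tt and 7 in control. Of 19 other cardiac stress genes, 2 of 10 measured were lower in dC10mut and 0 of 9 passed in tt. The 2 were Myh7, the beta myosin gene (11 counts in dC10mut and 27 in NTG), and Myh7b (36 in dC10mut and 70 in NTG). Both are uncertain, since Myh7 lies opposite Mhrt, given above, and Myh7b has exons opposite Trpc4ap, which held no count. Fhl2, the heart's other abundant member of the FHL family, held 25 counts in dC10mut and 15 in NTG, and 15 in tt and 9 in control.

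Among 15 targets of YAP and serum response factor, Acta2, smooth muscle actin, was higher in dC10mut (24 counts, against 6 in NTG). Ccn1, a close relative of Ccn2, was lower in tt (2 counts, against 13 in control). Ccn1 held 2 counts in dC10mut and 5 in NTG. Acta2 was also higher in control than in NTG (24 counts against 6). Tagln, another smooth muscle gene, held 26 counts in dC10mut and 28 in NTG, and 26 in tt and 36 in control, and the vinculin gene Vcl held 17 in dC10mut and 27 in NTG, and 20 in tt and 19 in control. The 8 markers of smooth muscle and pericytes include Acta2 and Tagln. They summed to 178 counts in dC10mut and 102 in NTG, and to 130 in tt and 163 in control. Rgs5 held the most of these counts, with 120 in dC10mut and 65 in NTG, and 86 in tt and 95 in control. It passed the rule in neither pair. In the list around Ccn2 and TGF-beta, 2 of 10 measured genes were lower in tt, Ccn1 and the collagen gene Col1a2. Col1a2 held 2 counts in dC10mut and 7 in NTG, and 2 in tt and 11 in control. Ccn1 and Col1a2 thus held their highest counts in control. Col3a1 held 18 counts in tt and 34 in control (log2 ratio -0.98, interval -1.91 to -0.14). In the list around calcineurin 1 of 4 measured genes was higher in dC10mut, the regulatory subunit gene Ppp3r1 (17 counts, against 5 in NTG), and 0 of 5 passed in tt, where Nfatc3, a transcription factor that calcineurin activates, held 10 counts and control held 10.

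Of 14 intercalated disc genes, 7 were measured in each pair and 0 passed. Dsp, the desmoplakin gene, held 146 counts in dC10mut and 111 in NTG, and 187 in tt and 140 in control. Gja1, the gap junction gene connexin 43, held 64 in dC10mut and 58 in NTG, and 107 in tt and 80 in control. Ctnna1, alpha-catenin, held 86 in dC10mut and 51 in NTG, and 89 in tt and 80 in control. In the tt pair 6 of the 7 had ratios above equality, with a median log2 ratio of 0.33. All 7 reach 10 counts in that pair, and 47.9% of all such genes were above equality. Dsp has exons opposite Gm10129. Of 13 titin spring and Z-disc genes, Myom2, of the M-band, was higher in tt (217 counts, against 88 in control; log2 ratio 1.21, interval 0.86 to 1.59) and lower in control than in NTG (88 counts against 165), so control held its lowest count. The Z-disc genes Tcap, Actn2 and Des were abundant, and Tcap held 393 counts in dC10mut and 323 in NTG, and 256 in tt and 306 in control. Actn2 held 264 in dC10mut and 299 in NTG, and 263 in tt and 295 in control, and Des held 249 in dC10mut and 204 in NTG, and 231 in tt and 292 in control. Of 16 tubulin and microtubule genes beside Tubb6, 0 passed in either pair, and Tubb5 held 19 counts in dC10mut and 31 in NTG, and 24 in tt and 23 in control. Ttl, the tubulin tyrosine ligase gene, held 11 in dC10mut and 16 in NTG, and 30 in tt and 31 in control. Tuba8 held 28 in dC10mut and 16 in NTG, and 19 in tt and 18 in control.

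Markers of other cells differed beside Nppa and Ankrd1. The 8 endothelial markers summed to 229 counts in dC10mut and 223 in NTG, and to 134 in tt and 262 in control. Fabp4 (102 in tt and 203 in control) and Kdr (11 in tt and 27 in control) were lower in tt by the rule, and Pecam1, Egfl7 and Emcn, each with several rows, were at 0 throughout. The 8 macrophage markers summed to 48 counts in dC10mut and 18 in NTG, and to 18 in tt and 46 in control. Lyz2, lysozyme, held 28 counts in dC10mut and 6 in NTG, and 5 in tt and 28 in control. By the rule it was higher in dC10mut than in NTG, lower in tt than in control, and higher in control than in NTG. No other macrophage marker passed in these comparisons. Adgre1 and Cd14 were at 0 throughout. Heart muscle markers summed to 3204 counts in dC10mut and 2190 in NTG, and to 2525 in tt and 2796 in control. In these pools of heart tissue fewer cells of a type and less RNA per cell cannot be told apart. The part of any of these cells in the values of Nppa and Ankrd1 was not tested.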

How the data were processed

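Poly(A) RNA of mouse hearts was measured in 4 libraries (dC10mut, NTG, tt and control). The deposited files give each RefSeq transcript a raw count of reads, all whole numbers, made by the authors with STAR and HTSeq on mm10 per the submitters' processing notes. The counting mode, strand setting and tool versions are not given in the sources used here. Of 41449 transcripts, 41351 matched a symbol in RefSeq GRCm38.p6 or GENCODE M21, and counts were summed per symbol. Libraries were scaled with TMM (edgeR 4.0.16, R 4.3.3). Log2 ratios used a prior count of 0.5; intervals are exact conditional binomial (Clopper-Pearson) at 95%. That of the difference between pairs is a normal approximation. The shared difference was fitted in genes that reached 1 CPM in 2 or more libraries. Ratios and the test were tried on simulated data that held counting error only, with the same fold in both model libraries. That trial does not cover differences between animals or ratios that differ between the pairs. Alternatives covered scaling, prior count, filters, transcript choice, DESeq2 1.42.0 and the block. Named genes were the members, genes with exons opposite theirs, the 3 genes of each pathway list with the most counts, called list genes with at least 10 counts in the pair, the most counted markers and the nearest genes in pattern; Cabin1, Col1a1, Fhl3 and some markers that the rule takes are not described. Mhrt, Tsix and the genes named as listed at 0, beside the members, were picked after their values were seen. The members and lists were chosen with earlier results of these data known.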

Additional observations from a re-analysis of the deposited data

Results flagged for a closer look

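With 1 library per group, a gene is listed here when its ratio was above equality in one pair and below it in the other, and none of these differences was tested. Nppa differed most, with a tt pair minus dC10mut pair difference of -2.98 on the log2 scale. For Xirp1 the difference was 0.81 (interval -0.13 to 1.74), for Tubb6 0.42 (0.04 to 0.79) and for Lmcd1 1.19 (-0.88 to 3.26), and none of these 3 passed the rule. The difference of Lmcd1 is past 2-fold but its interval spans equality, and those of Xirp1 and Tubb6 are below 2-fold. With library totals in place of TMM the difference of Tubb6 was 0.33. With upper-quartile scaling the tt ratio of Tubb6 was -0.0383, so its pairs then had the same sign.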

How the results depend on the processing

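Of 179 alternative values for single genes, 171 kept their sign and 8 did not. Some of the 179 could not differ from the main value. Each of the 6 genes has 1 transcript row and at least 10 counts in each comparison of 2 libraries. The transcript choice and that count minimum therefore left those ratios as they were. With NTG in place of control, the tt ratio became 0.54 for Nppa, 0.23 for Ankrd1 and -0.40 for Xirp1, all changes of sign, 0 of the 6 genes were called or lower, and 135 genes over the whole table were higher (223 against control). With control in place of NTG, 2 genes were called in dC10mut, both lower, with a change of sign to -1.47 for Nppa and to 0.18 for Xirp1, and a ratio of -1.67 for Ankrd1. Both replacements were chosen after seeing the data and set libraries of unlike strain label against each other. With DESeq2 size factors 1 gene was called in tt, lower. The whole-table split of 223 higher and 130 lower genes in tt became 167 and 202 with upper-quartile scaling, where the tt ratio of Tubb6 was -0.0383. In dC10mut 144 higher and 203 lower became 169 and 166 with library totals, and 107 and 248 with TMM over genes without an opposite-strand exon, an alternative added after seeing the data. For control against NTG 114 higher and 138 lower became 155 and 84 with library totals and 83 and 156 with that added TMM. The shared difference called 18 genes with the pair as a block and 0 with no replicate block. It called 9 with library totals, 1 with upper-quartile scaling, 11 with no filter, 0 with at least 10 counts in 2 libraries and 0 with DESeq2, and 0 of the 6 genes in any of these. For Lmcd1 it was 0.0154, and -0.0458 (upper quartile) or -0.0263 (DESeq2). The pairs come from the design text, since the labels number no replicates, and leaving out a replicate was not possible with 1 library per group. The causes were not tested. Depth limits Lmcd1 most, at 5 to 11 counts.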
